A study of Mus musculus with 4 samples.

Results

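Mouse embryonic fibroblasts (MEFs) in which Rb was deleted and replaced by an Rb that Cdks cannot phosphorylate were compared with the parental MEFs, 1 array each. A gene was taken in when either array detected it at p below 0.01, and its brightest probe was used. This gave 12094 genes, compared with 12616 detected on any of the 4 arrays of the series and 30872 gene symbols on the array. At the edge of this rule, 7 genes with a detection p-value of 0.00962 and intensities of 55.6 to 56.6 were kept, and 1 gene with 0.0107 and an intensity of 56.3 was left out. All MEFs were of strain FVB;129 and carried floxed Rb alleles. Parental MEFs received the solution without TAT-Cre and medium without virus. The ΔCdk Rb-HA MEFs received TAT-Cre, a recombinase that enters cells by itself, and a retrovirus that carries HA-tagged murine Rb with alanine at its Cdk phosphorylation sites. Each treatment was given 2 times for 1 h, 3 h apart. According to the methods of the study, the cells were also released from contact arrest and exposed to doxorubicin, which the labels do not mention. The remaining 2 arrays, from Rb-deleted MEFs without virus and from Rb-deleted MEFs with wild-type (WT) Rb-HA, are given beside this comparison, and all 3 were set against the same parental array.

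Rb binds the E2F transcription factors and represses genes needed for S phase, among them those for DNA replication, nucleotide synthesis and cyclin E. Phosphorylation by cyclin-Cdk complexes normally ends this repression, so an Rb without Cdk sites is known as a form that stays bound to E2F. Fibroblasts also respond to type I interferon, which acts through STAT and IRF factors on promoters with an interferon response element and induces antiviral proteins.

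Mean intensities of the 4 arrays were 336 to 346, and 15950 to 16740 of 45281 probes were detected on each. All 16 fibroblast markers were detected on both arrays. Of the markers of other cells, 4 of 12 endothelial, 4 of 12 epithelial, 5 of 13 skeletal muscle and 4 of 12 neural genes were detected on either, whereas the endothelial genes Pecam1 and Cdh5, the epithelial genes Cdh1 and Epcam, the muscle gene Myod1 and the neuronal gene Tubb3 were not. Rb1, on chromosome 14, had an intensity of 543 in parental MEFs and 170 in ΔCdk Rb-HA MEFs, a log2 ratio of -1.75 ± 0.06. It had 160 in Rb-deleted and 181 in WT Rb-HA MEFs. Errors of a log2 ratio are bead standard errors, which measure the spread among beads of 1 array and not that between cultures. A further Rb1 probe fell from 108 to 52.9, where it was not detected, so the decrease there was at least 1.78-fold. Neither probe showed the viral Rb as an increase. The probes start at positions 4002 and 4421. Whether these lie in the deleted part or in the viral insert is not given in the sources used here. The values of these probes therefore do not show whether the viral Rb was expressed. At the protein level, the paper reports an immunoblot of contact-inhibited MEFs with the ectopic Rb present, which it describes as physiologic in amount. Another 4 probes, named by a number rather than by a gene, had the largest increases of all. Their intensities were 41.7 to 123 in parental MEFs, 41.2 to 105 in Rb-deleted MEFs, 976 to 6540 in WT Rb-HA MEFs and 1620 to 9491 in ΔCdk Rb-HA MEFs. They were brightest on the 2 arrays whose labels name a retrovirus, although 2 of the 4 were also detected on both other arrays, with log2 ratios of 6.31 to 7.90 in ΔCdk Rb-HA MEFs. Since the ΔCdk Rb-HA and parental MEFs differed in TAT-Cre, virus, the exogenous Rb and the culture, the parts of these in any ratio cannot be told apart.

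In ΔCdk Rb-HA MEFs 323 genes (2.67% of 12094) were increased past 1.6-fold and 416 (3.44%) were decreased, while 11355 lay within. Every count of list members below is to be read beside these shares. A change of more than 4-fold was found in 48 decreased and 6 increased genes, and 4 of the latter were the numbered probes. The median log2 ratio was 0.80 among increased genes, -0.92 among decreased genes and -0.01 over all genes, of which the middle 90% lay between -0.57 and 0.55. With 1 array per condition no test was possible, and "increased" and "decreased" mean only that a ratio passed 1.6-fold, or 0.68 on the log2 scale. The signal was not detected on the parental array for 62 of the increased genes and not on the ΔCdk Rb-HA array for 99 of the decreased genes. For these only a lower bound of the fold can be given, and it passed 1.6-fold for 6 and 18 genes. The others count as changed here and in the lists by a ratio to a value at background. Among the called genes, 261 increased and 317 decreased were detected on both arrays. Where a called gene had other probes, they all had its direction for 63 of 71 increased and 105 of 120 decreased genes. Without background correction the counts were 170 and 262.

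**Figure D1:**
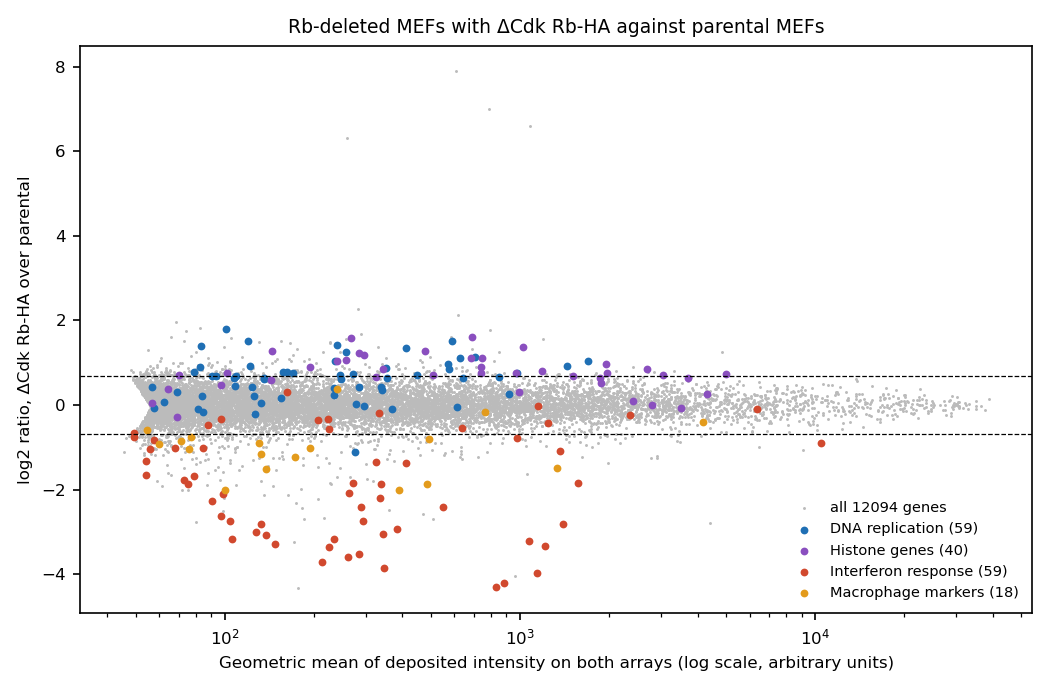
Log2 ratio of ΔCdk Rb-HA over parental MEFs (vertical) against the geometric mean of the deposited intensity on both arrays (horizontal, log scale), 1 point per gene for 12094 genes, with 4 gene groups in colour and dashed lines at 1.6-fold. Replication and histone genes sit above 0 in the main, interferon response genes reach -4.30, and the 4 grey points above 6 are the numbered probes.

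DNA replication genes were increased. The MCM genes encode the replicative helicase loaded at origins, and 5 of its 8 detected genes passed 1.6-fold, with a list median of 1.15, compared with 2.67% of all genes. Mcm3 had an intensity of 63.8 in parental MEFs and 159 in ΔCdk Rb-HA MEFs, a log2 ratio of 1.80 ± 0.11. For Mcm5 the intensities were 367 and 950 (1.52 ± 0.06), and for Mcm6 they were 273 and 624 (1.36 ± 0.12). Mcm2 rose from 178 to 374 and Mcm4 was at 1.04, whereas Mcm10 (0.64) and Mcm7 (0.62) stayed just within the threshold. All 8 lay above 0. The MCM median of Rb-deleted MEFs was 1.73 and that of WT Rb-HA MEFs 0.71, and each of the 8 genes had a ΔCdk Rb-HA value between those of the other two.

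Of 19 detected genes for origin licensing and firing, 11 were increased and none was decreased (median 0.71). Cdc6, which loads the helicase at origins, rose from 79.8 to 179 (1.52 ± 0.10), with 162 in Rb-deleted and 107 in WT Rb-HA MEFs. Cdt1, its partner in licensing, rose from 445 to 885 (1.12 ± 0.07). Gins2, a subunit of the active helicase complex, was at 1.42 and the polymerase alpha adaptor Wdhd1 at 1.41. Smaller increases were those of the fork protection genes Clspn (0.92), Timeless (0.91) and Tipin (0.71), of the origin kinase gene Cdc7 (0.79), of Gins1 and Orc6 (both 0.77), and of Cdc45 (0.68).

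Among DNA polymerase, clamp and RPA genes 7 of 22 were increased (median 0.63), with the DNA ligase Lig1 at 1.03, the single-strand binding subunit Rpa1 at 0.91, the flap endonuclease Fen1 at 0.86 and the polymerase delta subunit Pold1 at 0.73. Another 5 (Rpa2, Rnaseh2a, Rfc2, Pold4 and Rfc5) lay between 0.62 and 0.68, within the threshold. For deoxynucleotide synthesis 4 of 10 genes were increased, led by thymidylate synthase (Tyms), with 495 in parental and 997 in ΔCdk Rb-HA MEFs (1.14 ± 0.06), and followed by Dtymk (0.98), the ribonucleotide reductase subunit Rrm2 (0.88) and thymidine kinase Tk1 (0.79). Samhd1, which degrades deoxynucleotides, was decreased from 403 to 190 (-1.10 ± 0.09). Samhd1 is also known as a gene that interferon induces. Replication-coupled chromatin genes followed the replication genes, with 6 of 13 increased (median 0.60). Chaf1b, a subunit of the chromatin assembly factor, rose from 146 to 353 and its partner Chaf1a was at 1.04, the Polycomb methyltransferase Ezh2 at 1.08 and Uhrf1, which recruits the maintenance DNA methyltransferase, at 1.04.

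Promoters of these genes were searched for 4 strings of letters of the E2F motif (TTTGGCGC, TTTCGCGC, TTTCCCGC and TTTGCCGC, on either strand, where matches on opposite strands can overlap) in the 250 bases before and 50 after the RefSeq start (GRCm38.p6). Of the 33 increased genes of the replication and chromatin assembly lists, 29 had a promoter in the table and 10 of them (34.5%) held a match. Among members that stayed within the threshold the share was 10 of 30 (33.3%), and among all 27025 genes with a promoter it was 2.6%. A match is a description of the letters, not a site of binding. Sequence around the matches is shown for the 4 largest increases with a match before the start, so that the motif can be seen in its context, with the matching letters in capitals.
Cdc6, chr11:98907968-98908065, plus strand: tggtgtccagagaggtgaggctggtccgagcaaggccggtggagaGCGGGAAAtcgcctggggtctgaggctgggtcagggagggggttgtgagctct
Mcm5, chr8:75109311-75109412, plus strand: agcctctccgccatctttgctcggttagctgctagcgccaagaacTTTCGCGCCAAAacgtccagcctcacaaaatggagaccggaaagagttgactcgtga
Mcm6, chr1:128359763-128359860, minus strand: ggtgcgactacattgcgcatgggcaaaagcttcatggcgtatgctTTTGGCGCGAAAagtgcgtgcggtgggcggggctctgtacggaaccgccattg
Uhrf1, chr17:56304083-56304180, plus strand: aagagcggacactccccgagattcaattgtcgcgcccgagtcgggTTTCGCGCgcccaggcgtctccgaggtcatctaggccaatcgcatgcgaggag
In Mcm5 and Mcm6 matches on both strands overlapped to form 1 longer run of capitals, whereas Cdc6 and Uhrf1 held 1 match each in the stretch shown.

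Cyclin E genes were increased as well. Ccne1, the activator of Cdk2 at the start of S phase, had 85.3 in parental, 175 in Rb-deleted, 124 in WT Rb-HA and 155 in ΔCdk Rb-HA MEFs (1.13 ± 0.14 for the last over the first). Ccne2 was not detected in parental MEFs and was at least 1.69-fold higher. The Cdk inhibitor gene Cdkn1c (p57) was decreased from 4613 to 2504 (-0.85 ± 0.04), while it stood at 8789 in Rb-deleted and 7049 in WT Rb-HA MEFs. Of 17 genes for G1 cyclins, Cdks and their inhibitors only these 3 passed the threshold (median 0.20). Among E2F factors and pocket proteins E2f1, an activator E2F, was increased (388 to 626, 0.82 ± 0.07), Rb1 was decreased and the other 8 lay within, from Rbl1 (p107) at 0.54 to the repressor E2f4 at -0.53 (list median 0.08). Of 19 genes for G2/M and mitosis the survivin gene Birc5 (0.91) and the mitotic kinase gene Cdk1 (0.76) were increased (median 0.23). Of 19 DNA repair and S phase checkpoint genes the uracil glycosylase Ung (110 to 253, 1.47 ± 0.11) and the helicase Blm (0.73) were increased (median 0.21).

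Replication-dependent histone genes, which are transcribed in S phase, had increased members in all 4 core classes. For H4 7 of 8 detected genes passed the threshold (median 1.26), for H2A 9 of 15 (0.72), for H2B 6 of 10 (0.74) and for H3 3 of 7 (0.67), and none was decreased. The H3 median lay just within the threshold. Summed H3 intensity was nearly level, with 9731 in parental and 9854 in ΔCdk Rb-HA MEFs, compared with 2221 and 5110 for H4. Hist1h4h had 414 in parental, 260 in Rb-deleted, 621 in WT Rb-HA and 1138 in ΔCdk Rb-HA MEFs (1.61 ± 0.07). Hist1h4k had 167, 102, 226 and 431 on the same arrays (1.59 ± 0.07). Both were lowest in Rb-deleted MEFs and highest in ΔCdk Rb-HA MEFs. The same order was found for Hist1h2bk, with 588, 343, 746 and 924 (0.76 ± 0.06), and for Hist1h2bf, with 1564, 896, 1967 and 2489 (0.75 ± 0.04). Hist1h2ad, an H2A gene, had another order, with 1448 in parental, 3144 in Rb-deleted, 2475 in WT Rb-HA and 2652 in ΔCdk Rb-HA MEFs (0.97 ± 0.05). Of the 15 H2A genes 7 were higher in ΔCdk Rb-HA than on the Rb-deleted array, and 11 were above parental MEFs on the latter. The H2A list median was 0.78 in Rb-deleted and 0.59 in WT Rb-HA MEFs, whereas those of H2B (-0.77 and 0.37), H4 (-0.49 and 0.64) and H3 (-0.20 and 0.25) were below 0 in Rb-deleted MEFs. Genes for linker and replacement histones had a median of 0.15, with H2afz (0.81) alone past the threshold among 10. The linker genes Hist1h1a, Hist1h1b, Hist1h1d and Hist1h1e were not detected on the parental or the ΔCdk Rb-HA array. Coding sequences of histone genes of a class are near-identical, so their probes may share signal and are not separate measurements of each gene.

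**Figure D2:**
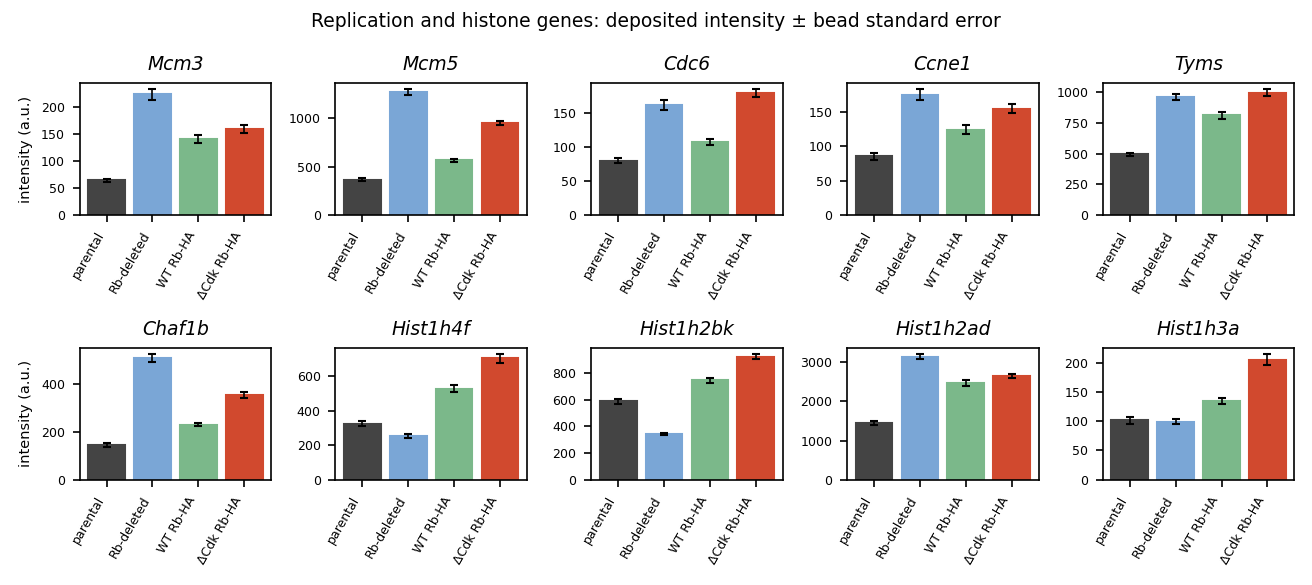
Deposited intensity (vertical, arbitrary units, from 0) of 6 replication and cyclin genes and 4 histone genes on the 4 arrays, with the bead standard error as bars. In ΔCdk Rb-HA MEFs all 10 stand above parental MEFs, and Hist1h4f and Hist1h2bk are lowest in Rb-deleted MEFs, where the 6 replication and cyclin genes and Hist1h2ad stand above parental MEFs.

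Interferon-induced genes were decreased, and 3 of their lists had the lowest medians of the 41 lists. IFIT and OAS genes encode antiviral proteins that bind or sense viral RNA. The ratios of all 7 detected genes passed 1.6-fold (median -2.81), compared with 3.44% of all genes. Of the 7, 5 were detected on both arrays. Ifit3 had 3548 in parental, 537 in Rb-deleted, 569 in WT Rb-HA and 194 in ΔCdk Rb-HA MEFs (-4.30 ± 0.07). Oasl2 had 3690, 762, 658 and 212 (-4.21 ± 0.07). Both were high in parental MEFs alone and lowest in ΔCdk Rb-HA MEFs. With the mean of their probes Ifit3 was at -3.64 and Oasl2 at -3.46, since a dimmer probe of each moved less. Ifit2, Oasl1 and Oas1g were at -2.74, -2.99 and -2.81, while Oas2 and Oas1a were not detected in ΔCdk Rb-HA MEFs and were at least 1.92-fold and 1.28-fold lower. The bound of Oas1a thus does not pass 1.6-fold.

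Of 22 genes of the ISG15 pathway and antiviral effectors 21 were decreased (median -1.87), the exception being the conjugating enzyme Ube2l6 at -0.56. Usp18, the protease that removes ISG15 and limits interferon signalling, fell from 4424 to 295 (-3.98 ± 0.06). Isg15 itself fell from 3898 to 382 (-3.34 ± 0.11). Rsad2 (viperin) was at -3.87, its neighbour Cmpk2 at -3.70 and the GTPase Mx2 at -3.07. Smaller decreases were found for the membrane proteins Ifitm3 (14255 to 7691, -0.89 ± 0.04) and Bst2 (tetherin, -1.37). The RNA-dependent kinase Eif2ak2 lay between, at -1.85 ± 0.05.

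Interferon-inducible GTPases, which act on pathogen-containing vacuoles, had 8 of 9 genes decreased and a median of -3.17. Gbp3 had 798 in parental and 85.4 in ΔCdk Rb-HA MEFs (-3.59 ± 0.09), Igtp 865 and 94.6 (-3.52 ± 0.12), and Gbp2 3261 and 351 (-3.23 ± 0.04). A dimmer Gbp2 probe had 59.5 and 36.4, where it was not detected, and the mean over its probes was -2.06. Irgm1 was the exception by its brightest probe, with 6700 and 6024 (-0.10 ± 0.07). Its other 2 probes were at -2.54 and -1.56, so the probes of Irgm1 did not move together. Among RNA sensors, IRFs and STATs 10 of 21 were decreased (median -0.65). They included Irf7, the factor that amplifies interferon production (372 to 58.6, -3.29 ± 0.17), and 2 genes of the interferon-activated transcription factor, Irf9 (516 to 135, -2.08 ± 0.06) and Stat2 (-2.12). The RNA sensors Ifih1 (MDA5) and Dhx58 were not detected in ΔCdk Rb-HA MEFs and were at least 3.73-fold and 2.99-fold lower, and Ddx58 (RIG-I) was at -1.84.

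Each of these lists was below 0 on the other arrays too. IFIT and OAS genes had medians of -2.18 in Rb-deleted and -2.48 in WT Rb-HA MEFs, ISG15 pathway genes -1.09 and -1.35, GTPases -2.10 and -2.19, and sensors, IRFs and STATs -0.51 and -0.57. The 3 ratios share the parental array and are not independent.

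The same promoter windows were searched for the letters GAAANNGAA of the interferon response element, on either strand. Of 57 decreased genes of the interferon and MHC class I lists, 44 had a promoter in the table and 22 of them (50%) held a match, compared to 4 of 17 (23.5%) among members within the threshold and 9.76% of all 27025 genes. For collagen and elastic fibre genes the share was 4 of 32 (12.5%). Sequence around the matches is shown for the 4 largest decreases with a match before the start, again with the matching letters in capitals.
Ifit3, chr19:34583329-34583427, plus strand: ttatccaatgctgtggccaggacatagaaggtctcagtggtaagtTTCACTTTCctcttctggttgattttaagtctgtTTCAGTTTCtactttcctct
Rsad2, chr12:26456518-26456616, minus strand: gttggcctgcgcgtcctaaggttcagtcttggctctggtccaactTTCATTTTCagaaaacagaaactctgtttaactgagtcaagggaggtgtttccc
Gbp3, chr3:142559955-142560043, plus strand: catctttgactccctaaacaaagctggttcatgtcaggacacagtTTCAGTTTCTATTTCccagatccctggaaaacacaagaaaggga
Igtp, chr11:58199477-58199555, plus strand: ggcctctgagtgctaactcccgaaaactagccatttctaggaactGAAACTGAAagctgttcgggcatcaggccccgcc
Ifit3 and Gbp3 held 2 matches each in the stretch shown, which overlapped in Gbp3, and Rsad2 and Igtp held 1.

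Antigen presentation genes were decreased to a smaller extent. In the MHC class I list 11 of 16 genes passed the threshold and all 16 lay below 0 (median -0.90). Immunoproteasome subunits Psmb8, Psmb9 and Psmb10 were at -1.16, -1.45 and -1.23, the peptide transporter genes Tap1 and Tap2 at -1.26 and -1.07, and the heavy chain H2-K1 fell from 2551 to 1335 (-0.89 ± 0.09). Class I heavy chain genes are highly similar, so their probes may share signal.

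Of 17 detected genes of the chemokine list 9 were decreased and 2 were increased (median -0.87). The list median was -0.86 in Rb-deleted and -0.74 in WT Rb-HA MEFs. Outside the list, the chemokine gene Ppbp and the predicted chemokine gene LOC100048554 were increased and are given further below. Cxcl10, which attracts T cells and is induced by interferon, had 605 in parental, 74.0 in Rb-deleted and 90.7 in WT Rb-HA MEFs and was not detected in ΔCdk Rb-HA MEFs (52.0), a decrease of at least 9.10-fold. Ccl5 had 1262 and 204 in parental and ΔCdk Rb-HA MEFs (-2.69 ± 0.08), and Ccl2, which attracts monocytes, 4513 and 1873 (-1.24 ± 0.07). The eosinophil chemokine Ccl11 moved the other way. It had 314 in parental, 246 in Rb-deleted, 386 in WT Rb-HA and 1221 in ΔCdk Rb-HA MEFs (2.14 ± 0.05), and its other probe was at 2.07 ± 0.08. Cxcl14 was increased from 984 to 1520 (0.74 ± 0.04). Among 15 IL-6 family and other cytokine genes (median -0.11) Il11 was increased (0.69), the inflammatory cytokine Il1b was at least 1.90-fold lower, and Il1rn (-0.81) and Tslp (-0.73) were decreased.

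Macrophage markers were decreased in the same comparison, 14 of 18 detected genes (median -0.97), compared with 3.44% of all genes. Emr1 (F4/80) had 773 in parental, 247 in Rb-deleted, 203 in WT Rb-HA and 198 in ΔCdk Rb-HA MEFs (-2.02 ± 0.07). Csf1r, the receptor for macrophage colony-stimulating factor, had 272, 159, 134 and 140 (-1.02 ± 0.08), and Laptm5 had 2286, 860, 663 and 782 (-1.49 ± 0.05). Lyz2 was at -0.17, and Cd53 alone lay above 0 (0.39). Summed over the 18 genes, the intensity was 12161 in parental MEFs and 7057 in ΔCdk Rb-HA MEFs, with 6194 on the Rb-deleted and 5687 on the WT Rb-HA array. Ptprc, Itgam, Fcer1g and Msr1 were not detected on the parental or the ΔCdk Rb-HA array. Complement genes included 3 decreased members of 11, the C1q chains C1qb (168 to 59.4), C1qc (-1.52) and C1qa (at least 1.26-fold lower), which macrophages make. The bound of C1qa does not pass 1.6-fold. The complement median was -0.32, and 0.04 with every probe counted by itself. In a culture measured in bulk, fewer macrophages and less RNA per macrophage cannot be told apart. The part of these markers in the decrease of interferon, chemokine and MHC genes was not tested.

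**Figure D3:**
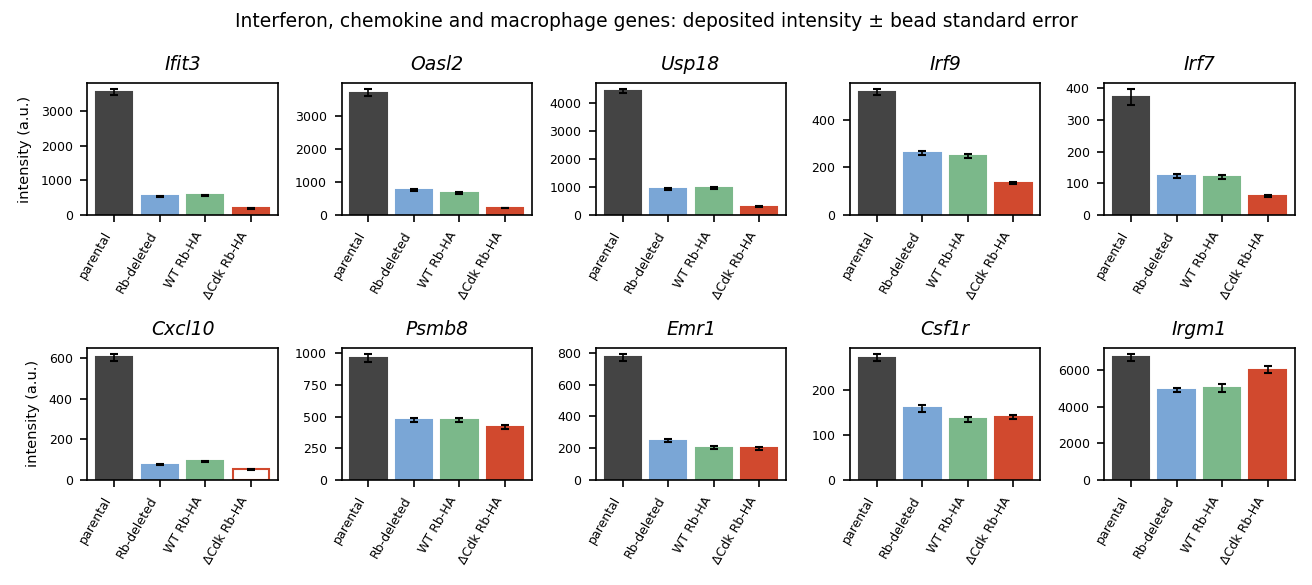
Deposited intensity (vertical, arbitrary units, from 0) of interferon, chemokine, proteasome and macrophage genes on the 4 arrays, with the bead standard error as bars and open bars for a probe that was not detected. Ifit3, Oasl2, Usp18, Irf9 and Irf7 are lowest in ΔCdk Rb-HA MEFs, the macrophage genes Emr1 and Csf1r are about as low on all 3 treated arrays, and Irgm1 is nearly level by the probe shown.

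Some matrix genes were decreased, while most lay within the threshold. Of 24 collagen genes 7 passed the threshold and 22 lay below 0 (median -0.59, compared with -0.19 in both Rb-deleted and WT Rb-HA MEFs). The fibrillar collagen gene Col3a1 had 9036 in parental, 5321 in Rb-deleted, 5985 in WT Rb-HA and 4638 in ΔCdk Rb-HA MEFs (-0.98 ± 0.08), although its other probe was at -0.40 ± 0.07. Col5a2 had 906, 554, 459 and 437 (-0.99 ± 0.09). Both were lower than in parental MEFs on all other arrays. Col8a2 and Col14a1 were not, since Col8a2 had 527, 693, 589 and 250 (-1.07 ± 0.05) and Col14a1 146, 230, 183 and 83.7, with values above the parental array in Rb-deleted and WT Rb-HA MEFs. Col4a1, Col4a2, Col18a1, Col6a1 and Col6a2 lay at -0.58 to -0.63, within the threshold.

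Elastic fibre genes had 4 of 18 members decreased (median -0.22). Elastin (Eln) had 1904 in parental, 3174 in Rb-deleted, 2080 in WT Rb-HA and 588 in ΔCdk Rb-HA MEFs (-1.63 ± 0.06). The microfibril genes Mfap4 (4779, 6749, 6669 and 2555) and Mfap2 (1954, 2498, 2248 and 1058) and the latent TGF-beta binding protein gene Ltbp4 (204, 313, 238 and 131) were at -0.88, -0.80 and -0.70. For all 4 genes ΔCdk Rb-HA MEFs were the lowest and Rb-deleted MEFs the highest of the 4 arrays. Growth genes of the IGF axis and the imprinted network had 4 of 18 decreased (median -0.24). Dlk1, a Notch-like inhibitor of fat cell differentiation, had 13283, 19306, 16491 and 6218 (-1.07 ± 0.05, and -1.44 ± 0.04 by its other probe), an order shared with Cdkn1c above. Mest (-1.03) and Igfbp3 (-0.74) were also decreased.

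Periostin (Postn), a matrix protein of the fibroblast and TGF-beta lists, fell from 275 to 124 (-1.26 ± 0.15). It was the only one of 21 myofibroblast and TGF-beta response genes past the threshold (median -0.12, and 0.03 with every probe counted by itself or with the mean of a gene's probes). Of the 16 fibroblast markers Col3a1 and Postn were decreased (median -0.35), whereas Vim (-0.04), Thy1 (0.23) and Dcn (0.19) were within. Mmp9 was the 1 decreased gene of 15 metalloproteinases and TIMPs (1112 to 560, -0.90 ± 0.07, list median -0.20).

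A few secreted proteins and proteases were increased outside the cell cycle. Of 6 detected genes for chymases, mast cell proteases and granzymes 4, all on chromosome 14, were increased (list median 1.10, with -0.44 in Rb-deleted and -0.10 in WT Rb-HA MEFs), while the other 13 of the 19 listed genes were not detected or had no probe. Cma2, a chymase, had 353 in parental, 88.4 in Rb-deleted, 248 in WT Rb-HA and 970 in ΔCdk Rb-HA MEFs (1.61 ± 0.07). Mcpt8, a marker protease of basophils, had 219, 87.1, 164 and 501 (1.37 ± 0.12). For both, Rb-deleted MEFs were the lowest and ΔCdk Rb-HA MEFs the highest. Gzme was detected in ΔCdk Rb-HA MEFs alone (110) and was at least 1.80-fold higher, and Gzmd was at 0.83. The mast cell markers Cpa3 and Tpsb2 were not detected on either array, and Tpsab1 was at 0.19. Among 11 neuropeptide and granin genes (median 0.25) Cck, the cholecystokinin precursor, had 141, 288, 298 and 565 (2.28 ± 0.08), the largest increase of a gene with a symbol, whereas the granin Scg2 had 103, 174 and 126 and was not detected in ΔCdk Rb-HA MEFs, at least 1.70-fold lower.

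**Figure D4:**
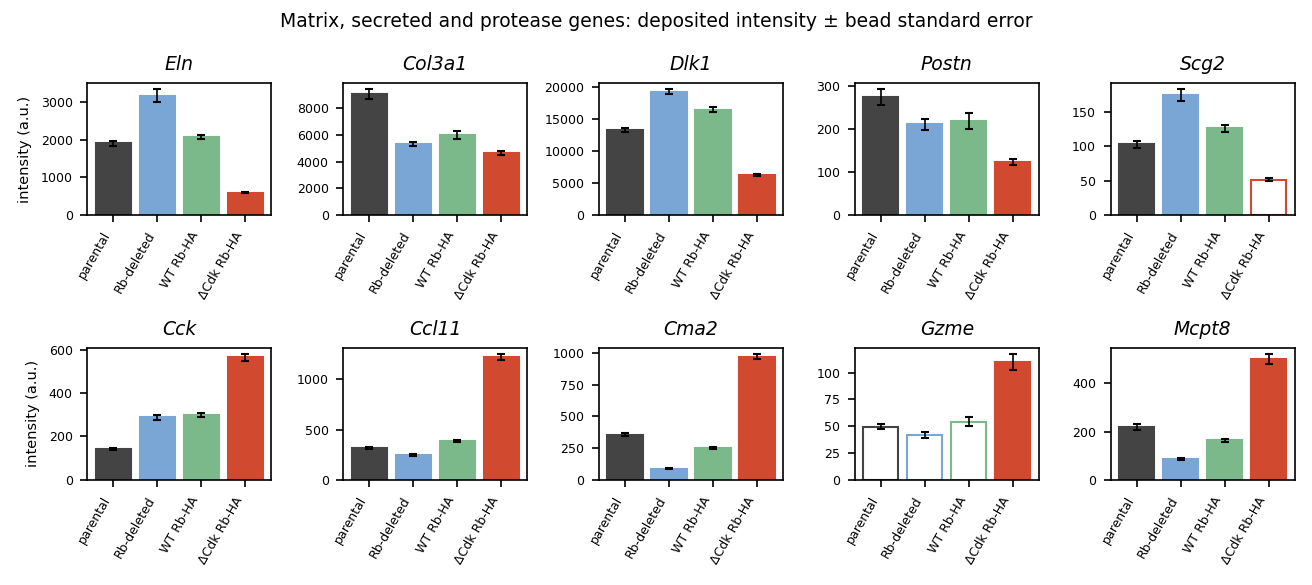
Deposited intensity (vertical, arbitrary units, from 0) of matrix, growth, peptide, chemokine and protease genes on the 4 arrays, with the bead standard error as bars and open bars for a probe that was not detected. Eln, Dlk1, Postn and Scg2 are lowest, and Cck, Ccl11, Cma2, Gzme and Mcpt8 highest, in ΔCdk Rb-HA MEFs.

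Of the 41 lists 7 had no member past the threshold. None of 26 detected p53 target genes did (median -0.05, from -0.52 for Zmat3 to 0.54 for Cd80), and Cdkn1a (p21) was at -0.11. None of 19 immediate early growth response genes did either (median -0.22), none of 24 genes for sterol and fatty acid synthesis (-0.04), none of 35 for respiratory chain complexes I and IV and none of 41 for ribosomal proteins. Respiratory chain genes lay above 0 in 33 of 35 cases (median 0.27), and ribosomal protein genes had a median of 0.13. Of 8 adipogenic genes the lipid droplet gene Plin2 was increased (0.93) and Dlk1 was decreased (median -0.11). No detected endothelial (4 genes, median -0.05) or epithelial marker (4, -0.18) passed it either. The skeletal muscle (5, 0.13) and neural (4, -0.17) markers included the muscle actin gene Acta1 (0.72), which was increased, and the intermediate filament gene Nes (-0.77), which was decreased.

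**Figure D5:**
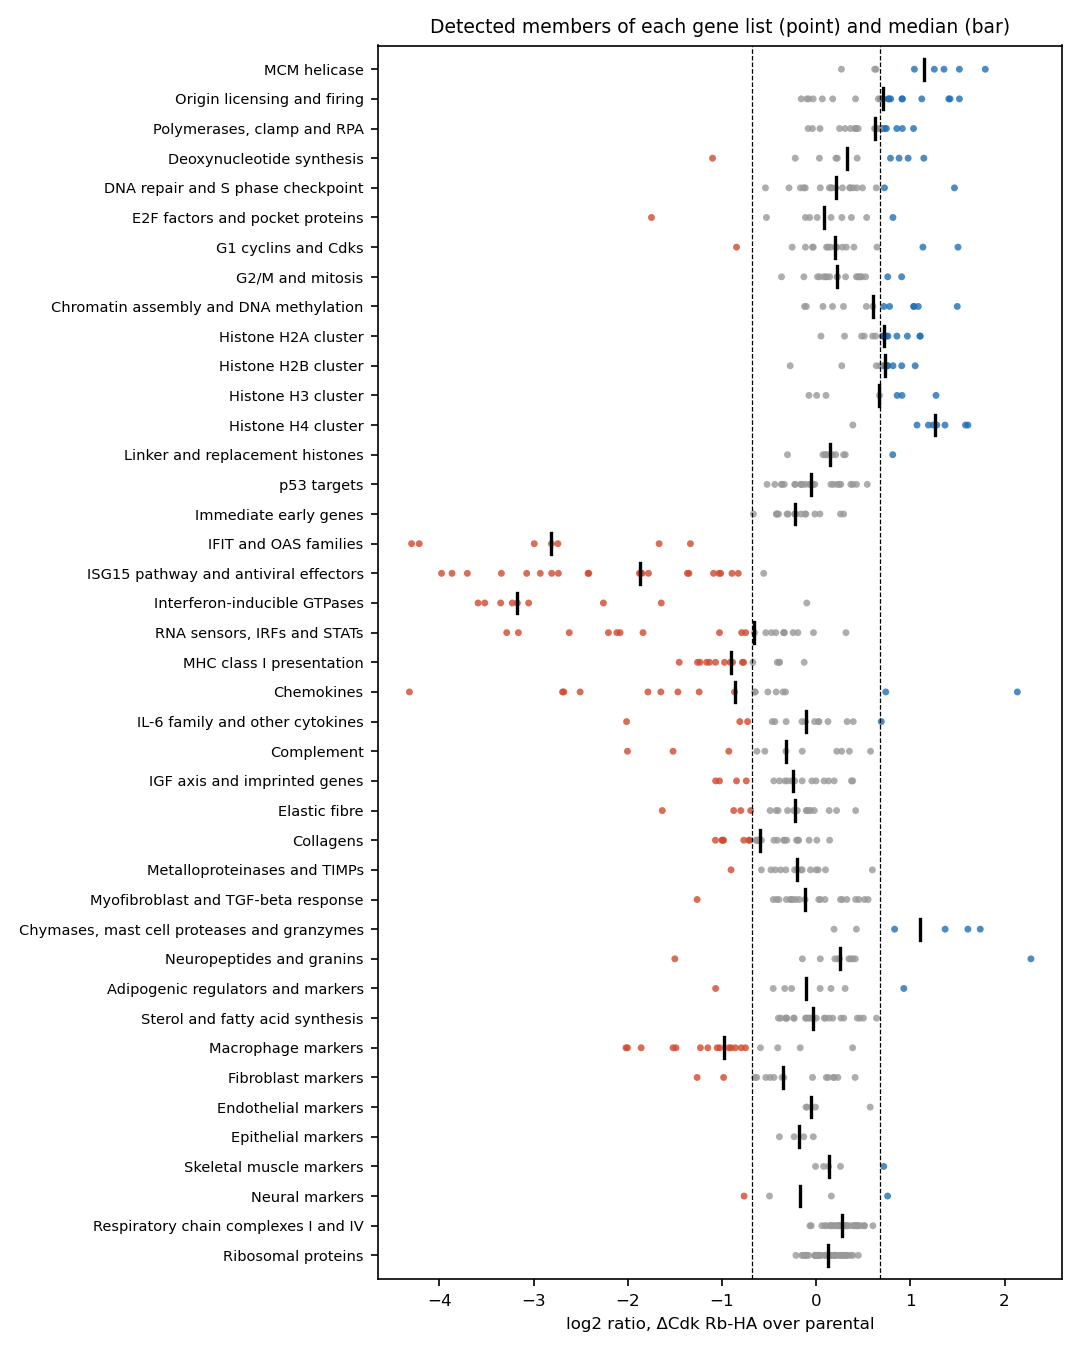
Log2 ratio of ΔCdk Rb-HA over parental MEFs (horizontal) for each detected member of 41 gene lists (points, blue where increased, red where decreased and grey within 1.6-fold, shown by dashed lines), with the median of each list as a black bar. Replication, histone and protease lists lie to the right, interferon, chemokine and macrophage lists to the left, and p53 target, sterol and ribosomal protein lists around 0.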

How the data were processed

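RNA of 4 MEF cultures was hybridized to 4 arrays of 1 Illumina mouse BeadChip, 1 array per condition. The authors deposited the mean bead intensity of each probe, linear and not normalized, with its bead standard error, bead number and detection p-value. The paper's text gives no normalization. Genome positions in the table come from several builds and were not used.

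Intensities were background corrected with normexp in limma (version 3.58.1, R 4.3.3), which took the background from the detection p-values and added an offset of 16, quantile normalized over the 4 arrays and put on the log2 scale. The calculation was tested on simulated data. Of 47 probes whose symbol had become a date, 34 were named from the Entrez number through RefSeq (GRCm38.p6), which also gave promoters. The 12094 genes came from 16995 probes. Bead standard errors were carried through each array's mapping from intensity to normalized value. Folds of probes that 1 array did not detect are bounds against the higher of their own value there and the lowest detected value of that array, and the lowest bound of the 3 background settings is given, a choice made after the values were seen. The number of arrays limits the precision, and no p-values were computed. A few genes are not reported here. Python 3.11.15, numpy 2.4.6 and pandas 2.3.3 were used.

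Named are Rb1, the genes of 41 lists, and the 20 largest increases and 20 largest decreases among genes with a symbol that the brighter array detected and that also passed 1.6-fold, in the same direction, without background correction. Members and lists were chosen with earlier results of these data known. Alternatives changed the background correction, normalization, filter, probes per gene and threshold.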

Additional observations from a re-analysis of the deposited data

Results flagged for a closer look

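Medians of 3 gene lists lay on opposite sides of 0, each more than 0.32 from it on the log2 scale, in ΔCdk Rb-HA and in Rb-deleted MEFs, both over the same parental array. For histone H4 genes they were 1.26 and -0.49, a difference of 1.749. Histone H2B genes had 0.74 and -0.77, a difference of 1.51. Chymase, mast cell protease and granzyme genes had 1.10 and -0.44, a difference of 1.54. Of the 6 detected genes of this list, 4 were detected on both the parental and the ΔCdk Rb-HA array. Gzme was not detected on the parental or the Rb-deleted array, so values near background enter these 2 medians. With 1 array per condition these differences were not tested.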

How the results depend on the processing

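With 1 array per condition, leaving out a replicate was not possible. No paired analysis was possible because each condition has 1 array. A probe near the background intensity of about 36 gives only a bound. Increased and decreased genes numbered 170 and 262 without background correction, 149 and 233 with an offset of 50, and 76 and 181 at 2-fold, and 501 genes were increased at 1.5-fold. Median scaling gave 369 and 385, and no normalization between arrays 275 and 478. No gene named by the rule changed direction in the alternatives that gave it a value. Without background correction list medians moved to -2.32 for IFIT and OAS genes, -2.79 for interferon-inducible GTPases and -0.74 for macrophage markers. With an offset of 50 these 3 were -2.14, -2.70 and -0.71, and RNA sensors, IRFs and STATs were at -0.42, MHC class I at -0.72 and chymases at 0.77. Over genes detected on both arrays the ISG15 pathway was at -2.42, chemokines at -0.65, muscle markers at 0.49 and neural markers at -0.50. With the mean of a gene's probes, IFIT and OAS genes were at -2.38, chemokines at -0.69, collagens at -0.42, metalloproteinases at -0.091 and myofibroblast genes, now above 0, at 0.028, as were sterol synthesis genes at 0.065. With every probe by itself, deoxynucleotide synthesis was at 0.51, G2/M at 0.43, GTPases at -2.80, chemokines at -0.65, collagens at -0.41, adipogenic genes at -0.26, fibroblast markers at -0.03 and neural markers at -0.50, and 3 medians turned to above 0, complement (0.036), myofibroblast (0.028) and sterol synthesis genes (0.086). Median scaling turned endothelial markers to 0.03. Of the named genes, the mean of probes moved Ifit3, Oasl2, Gbp2, Oasl1 (-2.30) and Parp14 (-1.82) by over 1.5-fold, and an offset of 50 moved, among others, Irf7 (-2.44), Mx2 (-2.24), Cmpk2 (-2.99) and Oasl1 (-2.14). Increases moved at this offset too, among them Mcm3 (1.22), Cdc6 (1.11), Dnali1 (1.09) and Ccne2 (0.87), whereas Mcm5 (1.43) and Chaf1b (1.28) moved little. The causes were not tested. Of 451 list medians 423 moved little, by a margin on the scale of the list's bead standard errors. Of 403 values of the named genes 71 moved past such a margin. Most of these moves came without background correction or with an offset of 50. In each of those settings most named genes moved, and the moved ratios were smaller in size. This margin does not measure variation between genes or between cultures.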

Other observations

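Genes of the skin's cornified envelope appeared among the largest increases, and the whole locus was looked up after these values had been seen. RefSeq lists 70 protein-coding genes in the epidermal differentiation complex on chromosome 3, from S100a10 to S100a1, of which 24 were detected. In ΔCdk Rb-HA MEFs 10 were increased and none was decreased, compared with 2.67% of all genes increased. Of the 24 genes, 6 entered only because the ΔCdk Rb-HA array detected them, and 3 of these are among the 10. Since the locus was chosen from these values, its count is a description. Crct1 had 722 in parental, 977 in Rb-deleted, 1135 in WT Rb-HA and 1978 in ΔCdk Rb-HA MEFs (1.57 ± 0.06). The envelope precursor involucrin (Ivl) had 457, 206, 358 and 1043 (1.32 ± 0.06). The late cornified envelope genes Lce3f and Lce1f were at 1.59 and 1.38, and Lce1g was at least 2.06-fold higher. S100a8 was also increased, while the 14 members within the threshold lay between -0.23 (S100a11) and 0.58, with S100a4 at 0.41 and S100a6 at -0.04. Of 12 epithelial markers 4 keratin genes were detected (Krt8, Krt14, Krt18 and Krt19), none past the threshold, and Cdh1, Epcam and Krt5 were not.

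Proliferin genes, of the prolactin family and known as growth-related in fibroblasts, were increased. Prl2c3 had 173 in parental and 482 in ΔCdk Rb-HA MEFs (1.68 ± 0.05) and Prl2c2 163 and 411 (1.56 ± 0.10). Both genes are near-identical, so their probes may share signal. The platelet chemokine gene Ppbp was at 1.51, and a predicted gene described as similar to monocyte chemoattractant protein-2 had 450 and 1406 (LOC100048554, 1.78 ± 0.04). Rnf213, an interferon-induced ubiquitin ligase outside the lists, had 11823 in parental and 1633 in ΔCdk Rb-HA MEFs (-2.79 ± 0.05). Predicted genes described as similar to Usp18 (LOC100048346, -4.06) and to an IFIT gene (LOC667370, -3.25) were decreased like the genes they resemble. Dnali1, an axonemal dynein gene, was detected in ΔCdk Rb-HA but not in parental MEFs and was at least 1.77-fold higher.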
